A study of Mus musculus with 8 samples.

Results

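Host genes of intragenic miRNAs are genes with a miRNA inside their own span. They were selected on position and tag count, as genes with a miRNA that starts and ends within the gene on the same chromosome, and genes whose miRNAs all had a mean of under 20 tags over the 8 small RNA libraries were left out. Of 20258 gene symbols in the table, 327 contained a listed miRNA and 98 met the tag minimum. These 98 hosts carried 147 mature miRNAs in 155 pairs of host and miRNA. Since the members were chosen by the tags of all 8 libraries, their abundance is a description with no test.

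The samples were hippocampi of C57BL/6 mice, a common inbred strain, taken from control animals and 12 h, 10 d or 6 wk after status epilepticus (SE), a prolonged seizure. The controls are labelled as time 0, and no later group has controls of its own time. Effects of SE and of the time that passed, such as ageing, therefore cannot be told apart. There were 2 libraries in each of the 4 groups, made from cDNA pooled from 2 animals, so that differences between the animals of a pool were not measured. The labels name no transgene or genetic change in any group, and the sources used here do not give the way in which SE was induced or the age and sex of the mice. For mRNA, the authors' deposited table gives, per gene and time, a mean signed fold against control and a mean q-value, and no mRNA value per library was analysed here. For small RNA it gives tag counts per mature miRNA and library. The sources used here do not say how the small RNA libraries were made or whether they came from the same pools.

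A miRNA in an intron is cut from the host transcript by the nuclear Drosha and DGCR8 complex before or during splicing, exported, and cut again by Dicer into a duplex whose arms (5p and 3p) can both enter an Argonaute protein. Bases 2 to 8 of the mature miRNA, the seed, pair with target mRNAs. A miRNA on the strand of its host can share the host's promoter or use one of its own, while a miRNA on the opposite strand needs a separate transcript. Many intronic miRNAs lie in families of related hosts, such as the C-terminal domain phosphatases (Ctdsp) with miR-26 and the pantothenate kinases (Pank) with miR-103 and miR-107.

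The mature sequences that the results turn on follow, from RefSeq (GRCm38.p6), written 5′ to 3′ with the seed in capitals. They are most of the miRNAs that changed with time after SE, the other arm where the arms are compared, and the families in which related hosts share a seed. RefSeq sequences were matched for 132 of the 147 miRNAs.

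miR-21a-5p (Tmem49): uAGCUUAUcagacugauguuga
miR-211-5p (Trpm1): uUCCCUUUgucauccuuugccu
miR-204-5p (Trpm3): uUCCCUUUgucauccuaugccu
miR-455-3p (Col27a1): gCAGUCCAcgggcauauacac
miR-218-5p (Slit2 and Slit3): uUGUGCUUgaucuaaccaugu
miR-488-5p (Astn1): cCCAGAUAauagcacucucaa
miR-488-3p (Astn1): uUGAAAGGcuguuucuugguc
miR-128-1-5p (R3hdm1): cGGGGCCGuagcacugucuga
miR-128-3p (R3hdm1 and Arpp21): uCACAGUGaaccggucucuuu
miR-431-5p (opposite strand of Rtl1): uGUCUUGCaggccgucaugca
miR-431-3p (opposite strand of Rtl1): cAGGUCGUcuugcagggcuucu
miR-434-5p (opposite strand of Rtl1): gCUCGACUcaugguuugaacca
miR-7a-5p (Hnrnpk): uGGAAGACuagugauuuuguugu
miR-1981-5p (Mosc2): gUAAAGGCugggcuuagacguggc
miR-350-3p (Cep170): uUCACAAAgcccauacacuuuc
miR-690 (Fgf12): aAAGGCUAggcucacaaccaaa
miR-30e-5p (Nfyc): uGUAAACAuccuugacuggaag
miR-30e-3p (Nfyc): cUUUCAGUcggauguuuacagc
miR-26a-5p (Ctdsp2 and Ctdspl): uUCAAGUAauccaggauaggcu
miR-26b-5p (Ctdsp1): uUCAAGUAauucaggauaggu
miR-103-3p (Pank2 and Pank3): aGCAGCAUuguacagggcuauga
miR-107-3p (Pank1): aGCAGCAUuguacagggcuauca
miR-15b-5p (Smc4): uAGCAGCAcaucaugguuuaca
miR-16-5p (Smc4): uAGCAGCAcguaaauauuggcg
miR-148b-3p (Copz1): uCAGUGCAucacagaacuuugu
miR-152-3p (Copz2): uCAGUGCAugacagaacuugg

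Within this set, miR-211-5p and miR-204-5p share the seed UCCCUUU, and the miR-26, miR-103 and miR-107, miR-15 and miR-16, and miR-148 and miR-152 sequences share theirs within each family. The arms of a hairpin, such as miR-431-5p and miR-431-3p, have different seeds and so are counted separately.

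Of the 155 pairs, the miRNA was assigned to the strand of the host in 130 and to the opposite strand in 24. The strand could not be assigned for 1 (miR-6540-5p in Gap43). In 134 pairs the miRNA lay in an intron of the host, in 10 in a coding exon, in 8 in a noncoding exon and in 3 in an untranslated region. Of the 10 pairs in coding exons, 8 were the miRNAs opposite to Rtl1. miR-21a-5p lay in an untranslated region of Tmem49. Most hosts carried 1 miRNA (55 hosts) or 2 (37 hosts), which for the latter were mostly the arms of a single hairpin, and Rtl1 carried the most, 8. In 10 pairs the miRNA also overlapped a small nucleolar or Cajal body RNA gene, whose fragments cannot be told apart from miRNA tags by position alone (for example miR-1843b in Rfwd2). More than 1 locus was listed for 15 of the miRNAs, in 21 pairs. The tags of these miRNAs cannot be divided between the loci, so they are not those of the host's copy alone.

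The 8 small RNA libraries held between 545672 tags (a 10 d library) and 3325374 tags (a 12 h library). The 147 miRNAs took 63.3% and 62.0% of the tags in the control libraries, 60.2% and 59.2% at 12 h, 58.6% and 58.5% at 10 d, and 56.7% and 57.3% at 6 wk. miRNA values are CPM (tags per 1000000 tags of a library, scaled by the trimmed mean of M-values, TMM), and 1 tag was worth between 0.297 and 1.73 CPM, depending on the library. Tests of miRNAs used edgeR's quasi-likelihood test over all 422 miRNAs that passed its count filter, with Benjamini-Hochberg adjustment over all of them and a threshold of 0.05. All 147 miRNAs passed that filter. The TMM factors were 0.931 and 0.914 in the control libraries and between 1.01 and 1.06 in the others. Compared with shares of all tags, this scaling raises the control values against those after SE. The sources used here do not say whether the small RNA libraries of a group came from separate pools, animals or experiments. The p-values therefore measure the spread between these libraries, whatever its origin.

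Most of the host-gene miRNAs that passed the test did so at 6 wk. At 12 h 1 of the 147 miRNAs passed, against 2 of 422 miRNAs in all (0.474%). At 10 d 1 passed, against 4 of 422 (0.948%). At 6 wk 13 passed, 7 higher and 6 lower, against 44 of 422 (10.4%), of which 27 were higher (6.4%) and 17 lower (4.03%). The share among host-gene miRNAs at 6 wk, 8.84%, was near that background. Among the 7 higher, miR-211-5p met the tag minimum only through the 6 wk libraries. At an unadjusted p under 0.05 the counts were 39, 30 and 38 of the 147, beside 84, 85 and 116 of the 422. Both libraries of a time lay above or below both controls for 90, 63 and 74 of the 147 at 12 h, 10 d and 6 wk. Such a separation was therefore common and is given below as a description. It was not counted over all 422. In a test of all 3 times at once, 19 of the 147 passed, against 65 of 422 (15.4%). The median log2 change of the 147 miRNAs was -0.12 at 12 h, -0.06 at 10 d and -0.08 at 6 wk, beside -0.04, -0.05 and -0.04 over all 422. The 12 h count rests on few libraries: it was 0 without either 12 h library and without the 10 d library of higher depth, and the 6 wk count was 7 without the 6 wk library of lower depth.

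**Figure D1:**
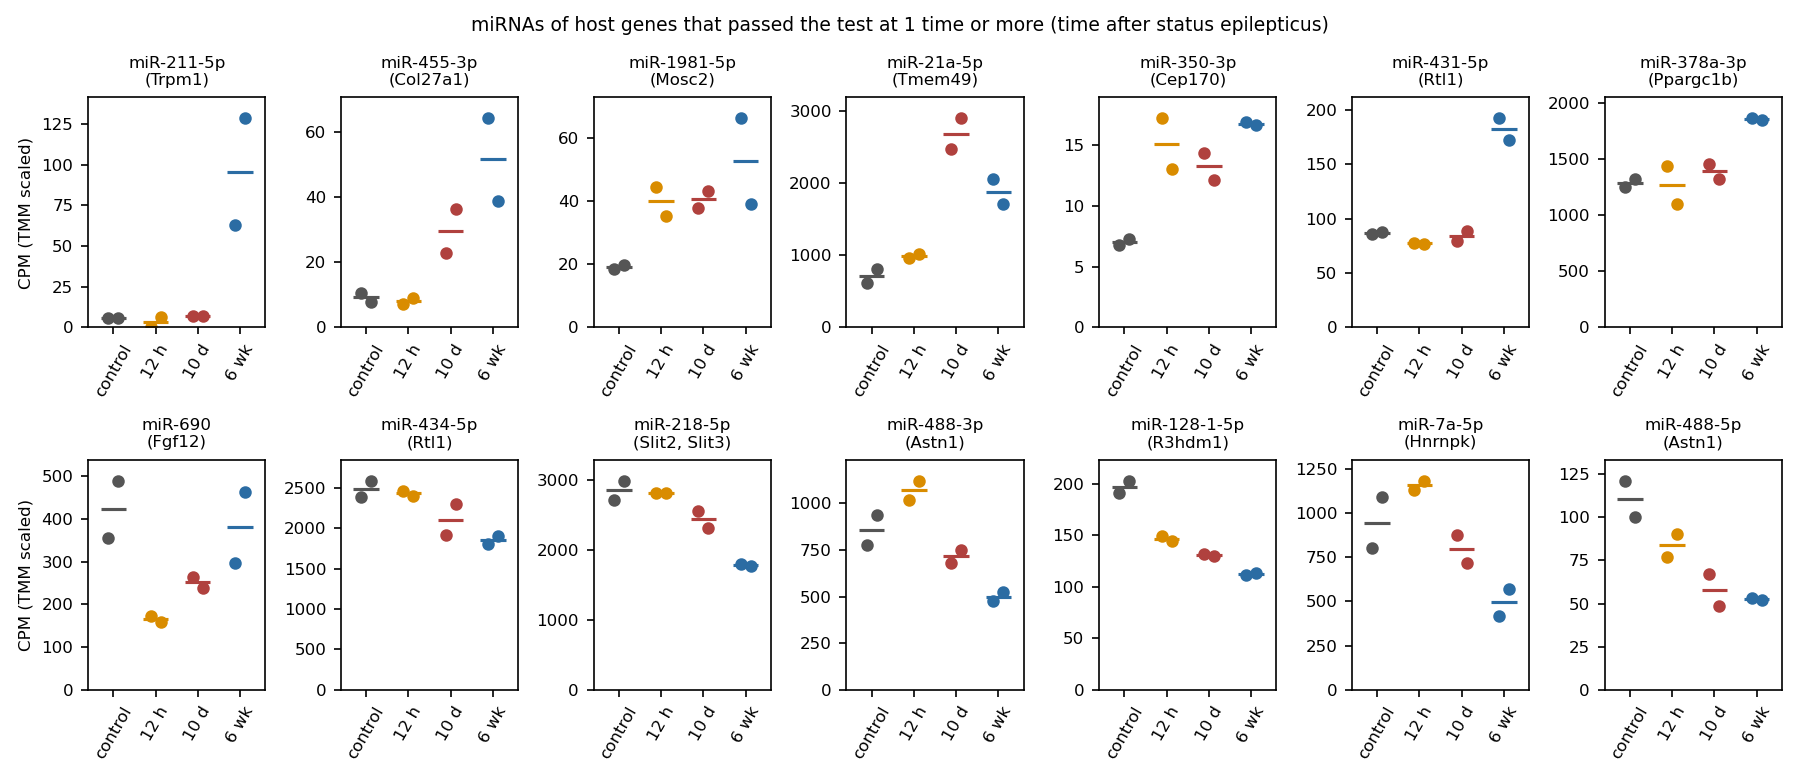
CPM (TMM scaled, axes from 0) of the 14 host-gene miRNAs that passed the test at 1 time or more, by group, with 1 point per library and a bar at the mean of the 2 libraries. miR-21a-5p is highest at 10 d, miR-211-5p is high in the 6 wk libraries alone, and miR-128-1-5p is lower at each time than in either control library.

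miR-21a-5p rose with its host at 10 d and 6 wk. It lies at chr11:86397622-86397643 (mm9) in an untranslated region of Tmem49 (chr11:86397367-86497324, minus strand), which encodes vacuole membrane protein 1 (Vmp1), an endoplasmic reticulum protein needed for autophagy. miR-21a-5p was counted at 621 and 806 in the control libraries, 962 and 1014 at 12 h, 2475 and 2900.2 at 10 d, and 2057 and 1711 at 6 wk CPM. Each library after SE was above both controls, and the 10 d libraries were the highest. Its log2 change was 0.47 ± 0.15 (SE) at 12 h (adjusted p = 0.144), 1.91 ± 0.16 (SE) at 10 d (adjusted p = 1.55e-04) and 1.40 ± 0.16 (SE) at 6 wk (adjusted p = 5.55e-04). Tmem49 had mean signed folds of 3.47 at 12 h (mean q 0.0502), 1.38 at 10 d (mean q 0.03) and 10.4 at 6 wk (mean q 7.71e-06) in the authors' deposited table. The host was therefore called at the times when the miRNA passed, but its order differed, with the larger fold at 6 wk and the larger miRNA change at 10 d.

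Both arms of miR-488 fell at 6 wk, as did their host Astn1 in the authors' calls. Astn1 (chr1:160292471-160621917, plus strand) encodes astrotactin 1, a membrane protein of neurons migrating along glia, and miR-488-3p lies in an intron at chr1:160435820-160435840. miR-488-3p was counted at 777 and 938 in the control libraries, 1016 and 1122 at 12 h, 679.9 and 750.2 at 10 d, and 475 and 525 at 6 wk CPM. Both 12 h libraries were above the controls, and both 6 wk libraries were below every other library. The log2 change of miR-488-3p at 6 wk was -0.78 ± 0.13 (SE) (adjusted p = 0.0052). miR-488-5p, the arm with fewer tags, was counted at 121 and 100.2 in the control libraries, 77 and 90.6 at 12 h, 67.1 and 48.5 at 10 d, and 53.3 and 52 at 6 wk CPM and changed by -1.07 ± 0.21 (SE) at 6 wk (adjusted p = 0.00864). Without either 6 wk library, the largest adjusted p of miR-488-5p was 0.073, above the threshold. Astn1 had mean signed folds of -1.39 at 12 h (mean q 1.93e-07), -2.8 at 10 d (mean q 0.128) and -2.24 at 6 wk (mean q 9.82e-16) in the authors' deposited table, so that it was called lower at 12 h, when both miR-488-3p libraries were above the controls.

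miR-218-5p fell at 6 wk, and of its hosts Slit2 was called lower at that time and Slit3 at the earlier times. Slit2 (chr5:48374394-48697017) and Slit3 (chr11:34934958-35522005) encode secreted axon guidance ligands of the Robo receptors, and each holds a copy of miR-218 in an intron. miR-218-5p was counted at 2715 and 2996 in the control libraries, 2816 and 2816 at 12 h, 2559 and 2319.9 at 10 d, and 1794 and 1776 at 6 wk CPM. Both 6 wk libraries were below all others, and the 10 d libraries lay between them and the controls. Its log2 change was -0.23 ± 0.11 (SE) at 10 d (adjusted p = 0.265) and -0.68 ± 0.11 (SE) at 6 wk (adjusted p = 0.0027). Slit2 had mean signed folds of -4.89 at 12 h (mean q 0.225), -0.62 at 10 d (mean q 0.222) and -19.3 at 6 wk (mean q 3.56e-04) in the authors' deposited table. Slit3 had mean signed folds of -6.97 at 12 h (mean q 2.75e-04), -20.2 at 10 d (mean q 4.83e-04) and -0.215 at 6 wk (mean q 0.213) in the authors' deposited table. The copies give the same mature sequence, so the tags cannot be divided between the hosts here.

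miR-128-1-5p fell at 6 wk while miR-128-3p, the abundant arm, did not pass the test. R3hdm1 (chr1:129999883-130134312), a gene for a protein with an R3H nucleic acid binding domain, holds miR-128-1 in an intron. Arpp21 (chr9:112018724-112119765, minus strand), which encodes a phosphoprotein regulated by cyclic AMP, holds miR-128-2. miR-128-1-5p, which comes from the R3hdm1 copy alone, was counted at 191 and 203 in the control libraries, 149 and 144 at 12 h, 131 and 129.9 at 10 d, and 112 and 113 at 6 wk CPM. All 6 libraries after SE were below both controls. Its log2 change was -0.43 ± 0.15 (SE) at 12 h (adjusted p = 0.155), -0.59 ± 0.15 (SE) at 10 d (adjusted p = 0.0831) and -0.81 ± 0.15 (SE) at 6 wk (adjusted p = 0.00671). miR-128-3p was counted at 18008 and 16436 in the control libraries, 19992 and 19856 at 12 h, 20325 and 15617 at 10 d, and 15471 and 14209.7 at 6 wk CPM, with a log2 change of -0.21 ± 0.13 (SE) at 6 wk (adjusted p = 0.337). R3hdm1 had mean signed folds of -0.723 at 12 h (mean q 0.155), -1.69 at 10 d (mean q 0.0105) and -1.49 at 6 wk (mean q 0.0803) in the authors' deposited table. Arpp21 had mean signed folds of 8.64 at 12 h (mean q 3.34e-06), 9.02 at 10 d (mean q 0.221) and 12.9 at 6 wk (mean q 1.33e-04) in the authors' deposited table, so that R3hdm1 was called lower at 10 d and Arpp21 higher at 12 h and 6 wk, and at no time were both called. The transcripts of Arpp21 that hold the miRNA had folds of both signs at 12 h and at 10 d.

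Among the higher miRNAs at 6 wk, miR-211-5p changed most. Trpm1 (chr7:71298721-71414645) encodes a cation channel of retinal bipolar cells and melanocytes, and miR-211 lies in an intron at chr7:71350717-71350738. miR-211-5p was counted at 5.82 and 5.97 in the control libraries, 0 and 6.24 at 12 h, 7 and 6.93 at 10 d, and 63 and 128 at 6 wk CPM. Both 6 wk libraries were above every other library. The 12 h library without it held 0 of 970366 tags, and a count of 0 allows up to 3.09 CPM (3 counts, counting error only). Its log2 change at 6 wk was 4.01 ± 0.55 (SE) (adjusted p = 0.00142). It met the tag minimum only through the 6 wk libraries, with a mean of 9.5 tags over the other 6 libraries. Its rise and its test at 6 wk are therefore a description. Trpm1 had mean signed folds of -0.0223 at 12 h (mean q 0.842), 4.08 at 10 d (mean q 0.4) and -3.74 at 6 wk (mean q 0.694) in the authors' deposited table and was called at no time. miR-204-5p, which shares its seed and lies in Trpm3, a gene for a related cation channel, was far more abundant and did not pass the test at 6 wk (log2 change -0.24 ± 0.32 (SE), adjusted p = 0.649).

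miR-455-3p rose at 6 wk. It lies in an intron of Col27a1 (chr4:62876446-62996024), which encodes a fibrillar collagen. miR-455-3p was counted at 10.7 and 7.96 in the control libraries, 7.09 and 9.21 at 12 h, 23 and 36.4 at 10 d, and 64.3 and 39 at 6 wk CPM. Both 10 d libraries and both 6 wk libraries were above all control and 12 h libraries. The log2 change was 1.56 ± 0.39 (SE) at 10 d (adjusted p = 0.0831) and 2.48 ± 0.35 (SE) at 6 wk (adjusted p = 0.00153). Col27a1 had mean signed folds of 8.2 at 12 h (mean q 0.0568), 0.666 at 10 d (mean q 0.0978) and 93.2 at 6 wk (mean q 0.249) in the authors' deposited table, and none of the 3 was called, including the largest fold of any host at 6 wk.

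miR-7a-5p fell at 6 wk. Its locus at chr13:58494202-58494224 lies in an intron of Hnrnpk, which encodes an RNA-binding protein of splicing and transcription, and the same mature sequence has another locus in the table that is in no host listed here. miR-7a-5p was counted at 799 and 1088 in the control libraries, 1129 and 1182 at 12 h, 874 and 714 at 10 d, and 417 and 572 at 6 wk CPM. The 6 wk libraries were below every other library, and the 12 h libraries were the highest. The log2 change at 6 wk was -0.93 ± 0.19 (SE) (adjusted p = 0.0106), and it missed the threshold without the control library of higher depth or the 6 wk library of lower depth (largest adjusted p 0.083). The other arm, miR-7a-1-3p, which comes from the Hnrnpk copy, had a log2 change of -0.09 ± 0.23 (SE) (adjusted p = 0.807). Hnrnpk had mean signed folds of 1.04 at 12 h (mean q 0.158), -19 at 10 d (mean q 5.95e-13) and -1.51 at 6 wk (mean q 0.297) in the authors' deposited table and was called lower at 10 d only.

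Further miRNAs that passed at 6 wk had hosts that were not called there. miR-1981-5p lies in Mosc2, a gene for a mitochondrial reductase, and was counted at 18.4 and 19.9 in the control libraries, 44.6 and 35.3 at 12 h, 37.9 and 43.3 at 10 d, and 66.3 and 39 at 6 wk CPM. Every library after SE was above both controls, and the 6 wk libraries were far apart. Its log2 change at 6 wk was 1.44 ± 0.29 (SE) (adjusted p = 0.00983), and it did not pass without the 6 wk library of lower depth (adjusted p = 0.1). Mosc2 had mean signed folds of 11.6 at 12 h (mean q 0.0347), -25.2 at 10 d (mean q 0.379) and -44 at 6 wk (mean q 0.249) in the authors' deposited table, and it was called higher at 12 h. miR-350-3p in Cep170, a gene for a centrosomal protein, was counted at 6.79 and 7.3 in the control libraries, 17.2 and 13.1 at 12 h, 14.4 and 12.1 at 10 d, and 16.9 and 16.6 at 6 wk CPM, near the tag minimum, which it would have missed without the 12 h libraries (a mean of 19.7 tags over the other 6). Its log2 change at 6 wk was 1.23 ± 0.30 (SE) (adjusted p = 0.0256), and it was not called by DESeq2 or without either control library or either 6 wk library. Cep170 had a mean signed fold of -1.44 (its mean q was 0.22) at 6 wk in the authors' deposited table.

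miR-378a-3p lies within the span of Ppargc1b, which encodes a transcriptional coactivator of mitochondrial genes (PGC-1beta). It was assigned here to the strand opposite to the host, and that assignment was not checked against another source. miR-378a-3p was counted at 1249 and 1322 in the control libraries, 1438 and 1098 at 12 h, 1459.7 and 1320.2 at 10 d, and 1864 and 1845 at 6 wk CPM. The 6 wk libraries were above all others, by a log2 change of 0.53 ± 0.14 (SE) (adjusted p = 0.0367), which was lost without either control library or either 6 wk library. Ppargc1b had mean signed folds of -115 at 12 h (mean q 4.57e-09), -2.41 at 10 d (mean q 0.155) and -0.636 at 6 wk (mean q 0.324) in the authors' deposited table and was called lower at 12 h, with the largest negative fold of any host at that time.

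Only miR-690 passed at 12 h. It lies in an intron of Fgf12, which encodes an intracellular growth factor homologue that binds sodium channels. miR-690 was counted at 356 and 490.3 in the control libraries, 172 and 158 at 12 h, 265 and 237 at 10 d, and 296 and 464 at 6 wk CPM. The 12 h libraries were below all others, the 10 d libraries below the controls, and the 6 wk libraries overlapped the controls. The log2 change was -1.36 ± 0.23 (SE) at 12 h (adjusted p = 0.0365), -0.75 ± 0.23 (SE) at 10 d (adjusted p = 0.106) and -0.16 ± 0.22 (SE) at 6 wk (adjusted p = 0.679). The 12 h call was lost without the control library of higher depth, without either 12 h library and without the 10 d library of higher depth. Fgf12 had mean signed folds of 0.0194 at 12 h (mean q 0.0882), -0.993 at 10 d (mean q 0.4) and 0.222 at 6 wk (mean q 4.30e-04) in the authors' deposited table, all under 1 in size.

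The miRNAs opposite to Rtl1 held the most tags of any host. Rtl1 (chr12:110828379-110833613, minus strand) is an imprinted retrotransposon-derived gene, and the 8 miRNAs counted here lie on the other strand of its coding exon, in a transcript expressed from the maternal chromosome. miR-127-3p, the most abundant miRNA of any host, was counted at 220066 and 210158 in the control libraries, 191371 and 198166 at 12 h, 172635 and 164644 at 10 d, and 171662 and 160126 at 6 wk CPM. In CPM all 6 libraries after SE were below both controls. As shares of all tags, without TMM factors, the 12 h libraries (19.5% and 20.1%) lay between the controls (20.5% and 19.2%). The log2 change at 6 wk was -0.37 ± 0.11 (SE) (adjusted p = 0.0537), which missed the threshold. miR-434-3p was counted at 14757 and 11862 in the control libraries, 14655 and 14259.7 at 12 h, 14274 and 12112 at 10 d, and 10171 and 9236 at 6 wk CPM and likewise missed it at 6 wk (log2 change -0.46 ± 0.13 (SE), adjusted p = 0.0575). miR-434-5p, at 2392 and 2592 in the control libraries, 2468 and 2405 at 12 h, 1920.3 and 2297 at 10 d, and 1805 and 1900.5 at 6 wk CPM, passed at 6 wk (log2 change -0.43 ± 0.12 (SE), adjusted p = 0.0444), but under 8 of 13 alternatives it did not, among them without either control library, without either 6 wk library and without the 12 h library of higher depth.

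Against this, miR-431-5p from the same cluster rose at 6 wk. miR-431-5p was counted at 86.4 and 87.6 in the control libraries, 78 and 76.6 at 12 h, 79.4 and 88.4 at 10 d, and 192 and 173 at 6 wk CPM. The 6 wk libraries were above all others, and the other 6 lay close together. Its log2 change at 6 wk was 1.07 ± 0.17 (SE) (adjusted p = 0.0027). The other arm, miR-431-3p, was counted at 393 and 330.4 in the control libraries, 432 and 418 at 12 h, 369 and 326 at 10 d, and 439.8 and 344 at 6 wk CPM, with a log2 change of 0.12 ± 0.16 (SE) (adjusted p = 0.67). Rtl1 itself had mean signed folds of -1.42 at 12 h (mean q 0.317), 1.46 at 10 d (mean q 0.26) and 4.91 at 6 wk (mean q 0.151) in the authors' deposited table and was called at no time. The sources used here do not say whether the mRNA reads were counted by strand, and without strand, reads of Rtl1 and of the opposite transcript cannot be told apart.

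The host mRNAs were called lower more often than higher at each time. A host was called where the authors' mean q was under 0.05 and the mean fold was at least 1 in size, and the sign of the fold gave the direction. By that rule the authors' deposited table called 7 hosts higher and 13 lower of 98 at 12 h, beside 10.2% higher and 7.48% lower of all 16783 genes with a fold. At 10 d it called 10 higher and 27 lower of 98, beside 7.85% and 11.3% of 17227 genes. At 6 wk it called 6 higher and 19 lower of the 97 hosts with a fold, beside 9.63% and 12% of 15798 genes, and Hoxd4 was listed at 0. Both directions together were 20.4%, 37.8% and 25.8% of the hosts, beside 17.6%, 19.1% and 21.6% of all genes with a fold. As shares of the hosts, the lower calls were 13.3%, 27.6% and 19.6% at the 3 times, against those backgrounds. With a stricter mean q of 0.01, the lower calls were 9, 18 and 14 and the higher calls 5, 6 and 4. The share of all genes was not counted at that mean q, so these counts have no background. The median fold of the hosts was -0.40 at 12 h, -0.85 at 10 d and -1.06 at 6 wk in the authors' deposited table, beside 0.56, 0.69 and -0.74 over all genes with a fold. These medians are on the authors' averaged signed scale, on which a value under 1 in size gives no direction, as holds for all of them but the hosts' at 6 wk. Hosts spanned more of the genome, with a median of 71.6 kb (quartiles 21.3 and 142 kb) beside 16.4 kb (quartiles 5.50 and 42.8 kb) over all 20258 genes, and a gene was a host by holding a miRNA within its span. The part of gene span in these shares was not tested, and mRNA levels were not analysed. The 3 comparisons share the same controls.

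**Figure D2:**
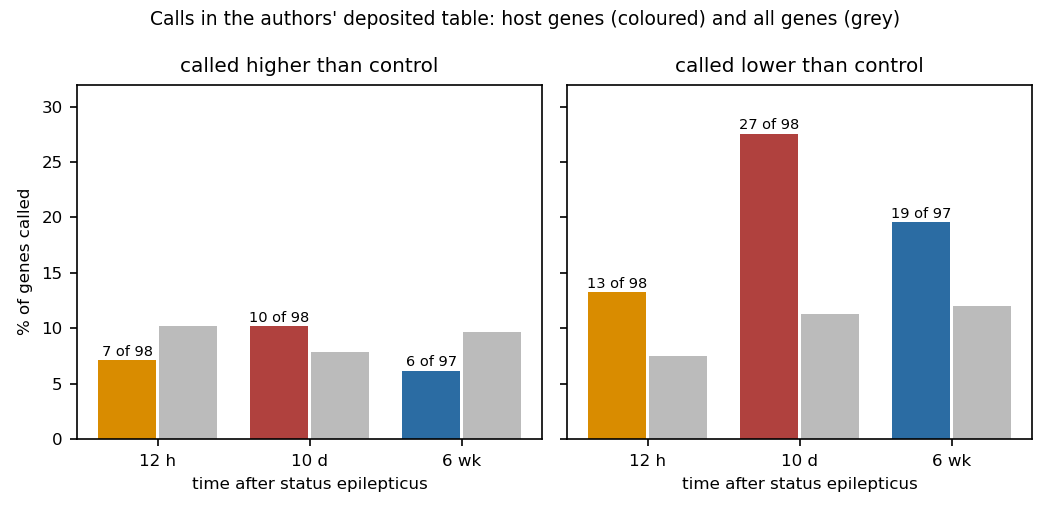
Percentage of host genes (coloured bars, with counts) and of all genes with a fold (grey bars) called higher or lower than control in the authors' deposited table, by time after SE. Lower calls take 13.3%, 27.6% and 19.6% of the hosts beside 7.48%, 11.3% and 12% of all genes.

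Folds under 1 in size with a mean q under 0.05, which were given no direction, occurred in the authors' deposited table for 6 hosts at 12 h, beside 4.28% of all genes, for 1 host at 10 d, beside 3.59%, and for 3 hosts at 6 wk, beside 3.73%. Over the 3 times, 42 hosts were called at none. Ift74, an intraflagellar transport subunit, and Mest were called lower at all 3 times, and 15 hosts were called lower at exactly 2 times. No host was called higher at all 3 times, and 5 were called higher at 2: Arpp21, Chpf2, Htr2c, Rfwd2 and Tmem49. Rnf130, a ubiquitin ligase, and Vwa5b2 were called in both directions at different times. Calls over several times were not counted over all genes, and the 3 comparisons share the same controls. Whether repeated calls are particular to hosts was therefore not tested.

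Mest and Ift74 were called lower at all 3 times, while their miRNAs passed against control at none. The authors' mean signed folds and the log2 changes of miRNAs are on different scales, so their sizes are not compared. Mest (chr6:30688063-30698457) is an imprinted gene of the alpha/beta hydrolase fold expressed from the paternal chromosome, with miR-335 in an intron. Mest had mean signed folds of -3.62 at 12 h (mean q 1.67e-05), -137 at 10 d (mean q 8.51e-11) and -5.41 at 6 wk (mean q 2.61e-11) in the authors' deposited table. miR-335-5p was counted at 236 and 346 in the control libraries, 451 and 419 at 12 h, 301 and 246 at 10 d, and 207 and 261 at 6 wk CPM and miR-335-3p at 201 and 270.0 in the control libraries, 326 and 324 at 12 h, 218 and 206 at 10 d, and 174 and 192 at 6 wk CPM. For both arms the 12 h libraries were the highest, while the host was called lower at that time. The log2 change of miR-335-5p was 0.57 ± 0.20 (SE) at 12 h (adjusted p = 0.155) and -0.32 ± 0.21 (SE) at 6 wk (adjusted p = 0.352), neither past the threshold. Ift74 had mean signed folds of -42.5 at 12 h (mean q 1.43e-10), -22.8 at 10 d (mean q 1.06e-07) and -5.34 at 6 wk (mean q 1.63e-07) in the authors' deposited table. Its miRNA miR-872-5p was counted at 113 and 116 in the control libraries, 141 and 132 at 12 h, 123 and 132 at 10 d, and 92.9 and 128 at 6 wk CPM, with log2 changes between -0.04 and 0.25.

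The other hosts with the largest called folds at each time were as follows. At 12 h, Alkbh1, a nucleic acid demethylase, had a mean signed fold of -78.3 (its mean q was 0.0178) and Rcl1, a ribosomal RNA processing protein, one of 13.3 (its mean q was 3.39e-07) in the authors' deposited table. miR-3068-3p of Alkbh1 changed by 0.03 ± 0.20 (SE) and miR-101b-3p of Rcl1 by 0.18 ± 0.17 (SE) on the log2 scale. At 10 d, Rfwd2, the ubiquitin ligase Cop1, had a fold of 94.9 (its mean q was 0.0307) and Rcan3, a regulator of calcineurin, one of 30.1 (its mean q was 1.46e-04) in the authors' deposited table. miR-1843b-5p of Rfwd2 changed by -0.35 ± 0.11 (SE) and miR-700-5p of Rcan3 by -0.30 ± 0.23 (SE). Rfwd2 was called higher again at 6 wk, with a fold of 14.3 (its mean q was 0.0153) in the authors' deposited table. At 6 wk, Glyctk, a glycerate kinase, had a fold of 62.2 (its mean q was 6.55e-11) and Ccdc55, a splicing factor, one of 33.4 (its mean q was 9.82e-16) in the authors' deposited table. miR-135a-5p, opposite to Glyctk, changed by 0.66 ± 0.22 (SE) and miR-423-5p of Ccdc55 by -0.07 ± 0.22 (SE). None of these 6 miRNA changes passed the test.

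By the role of the host, the lower calls were spread over groups. The groups are small, and beside them 7.48%, 11.3% and 12% of all genes were called lower and 10.2%, 7.85% and 9.63% higher at 12 h, 10 d and 6 wk. Among 5 hosts of metabolism (Pank1, Pank2, Pank3, Ppargc1b and Mest), the authors' deposited table called 2 lower at 12 h, 3 at 10 d and 2 at 6 wk, and none higher. Among 11 channels, receptors and guidance genes it called 1 higher and 2 lower at 12 h, 2 and 2 at 10 d, and 0 and 4 at 6 wk, the last being Slit2, Gpc1, Ptprn2 and Pde2a. Among 8 genes of RNA and chromatin it called 1 and 1 at 12 h, 1 and 3 at 10 d, and 1 and 0 at 6 wk. Among 6 genes of trafficking and membranes it called none higher, and 1, 2 and 1 lower. Of 4 genes of replication and the cell cycle it called Smc4 and Rcl1 higher at 12 h and Huwe1 lower at 10 d.

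Over the pairs as a whole, host and miRNA had the same sign about as often as opposite signs. At 12 h 82 of 155 pairs (52.9%) had the same sign for the host's fold and the miRNA's log2 change, at 10 d 78 of 155 (50.3%), and at 6 wk 79 of 154 (51.3%). These counts take the sign of every fold, also of those under 1 in size, which give no direction. Among pairs whose host had a fold of at least 1 in size, 66 of 110 (60%), 61 of 124 (49.2%) and 60 of 116 (51.7%) had the same sign. On the same strand the counts were 64 of 130, 65 of 130 and 69 of 129, and on opposite strands 17, 12 and 9 of 24. Spearman's rho between the fold in the authors' deposited table and the miRNA's log2 change over these pairs was 0.09, -0.02 and 0.05, given as a description, since pairs share hosts, clusters and libraries. Taking only the most abundant miRNA of each host, 55 of 98, 51 of 98 and 48 of 97 had the same sign. Among pairs whose host was called, 20 of 32, 29 of 58 and 24 of 36 had the same sign. Both host and miRNA were called in 0 pairs at 12 h, in 1 at 10 d (Tmem49 with miR-21a-5p) and in 4 at 6 wk (Tmem49 with miR-21a-5p, Astn1 with both arms of miR-488, and Slit2 with miR-218-5p), each with the same sign. Of the 14 pairs whose miRNA was called at 6 wk, 9 had the same sign.

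**Figure D3:**
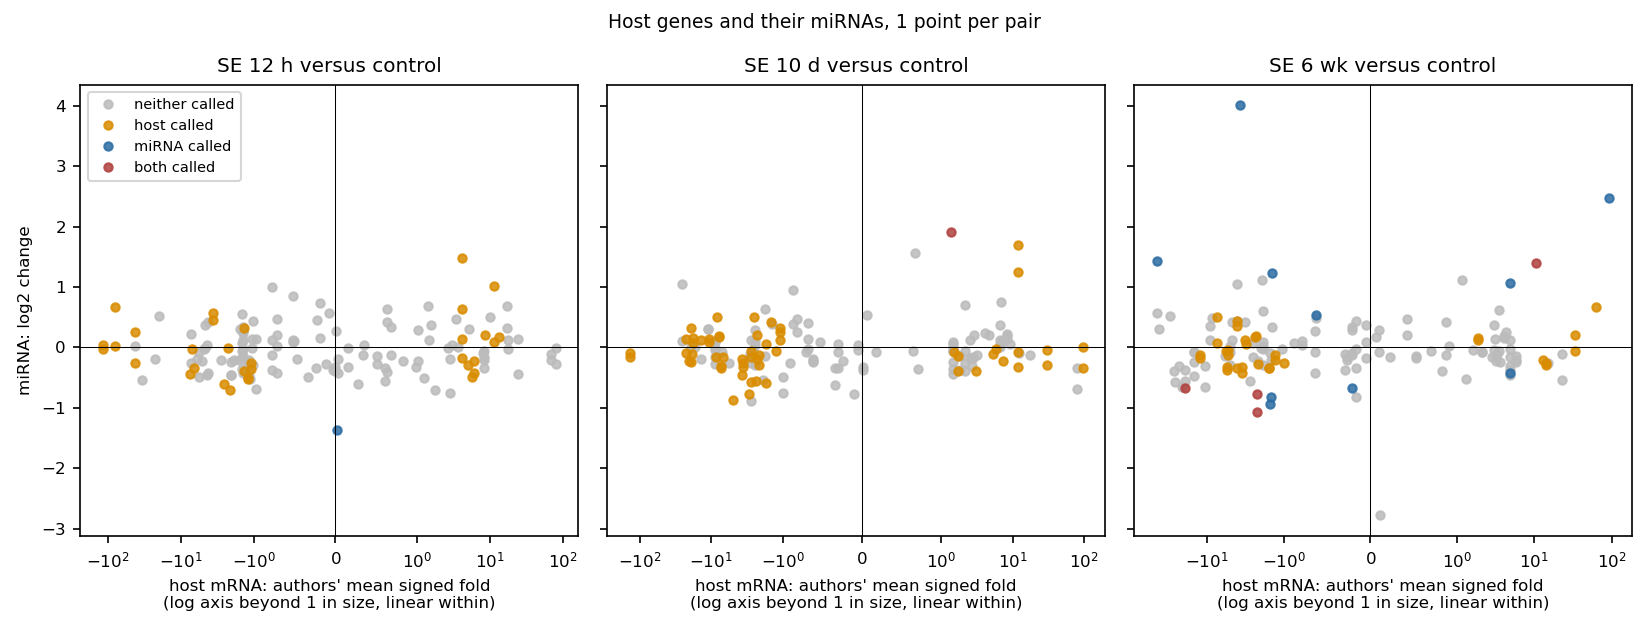
Each point is a pair of host and miRNA, with the authors' mean signed fold of the host on the x axis (logarithmic beyond 1 in size and linear within) and the log2 change of the miRNA on the y axis, at 12 h, 10 d and 6 wk versus control. Points fill all 4 quadrants at each time, and the pairs in which both were called number 0, 1 and 4.

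Among related hosts that carry the same seed, miR-26 and miR-103 did not pass at any time although some hosts were called. Ctdsp1, Ctdsp2 and Ctdspl encode small C-terminal domain phosphatases, which repress neuronal genes in cells that are not neurons. miR-26a-5p, from Ctdsp2 and Ctdspl, was counted at 165087 and 185848 in the control libraries, 134718 and 142056 at 12 h, 136541 and 132406 at 10 d, and 130999 and 136572 at 6 wk CPM. All 6 libraries after SE were below both controls, with a log2 change of -0.39 ± 0.11 (SE) at 6 wk (adjusted p = 0.0533). Ctdsp2 had mean signed folds of -0.232 at 12 h (mean q 0.256), 3.1 at 10 d (mean q 0.0315) and 0.829 at 6 wk (mean q 0.0985) in the authors' deposited table. Ctdspl had mean signed folds of -6.57 at 12 h (mean q 7.99e-04), 2.13 at 10 d (mean q 0.198) and -26.4 at 6 wk (mean q 0.224) in the authors' deposited table. miR-26b-5p, from Ctdsp1, was counted at 2331 and 2756 in the control libraries, 2516 and 2598 at 12 h, 2694 and 2921 at 10 d, and 2534 and 2611 at 6 wk CPM, and its log2 changes lay between 0.01 and 0.14.

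The pantothenate kinases make the first step of coenzyme A synthesis. Pank3 had mean signed folds of -0.467 at 12 h (mean q 0.184), -6.77 at 10 d (mean q 1.02e-08) and -5.68 at 6 wk (mean q 0.003) in the authors' deposited table. Pank2 had mean signed folds of -6.1 at 12 h (mean q 0.0501), -8.55 at 10 d (mean q 0.0466) and 0.703 at 6 wk (mean q 0.306) in the authors' deposited table, and Pank1 was not called. miR-103-3p, from Pank2 and Pank3, was counted at 2569 and 2008 in the control libraries, 2119.7 and 1874 at 12 h, 1957 and 2166 at 10 d, and 2226 and 2150.1 at 6 wk CPM, and its log2 changes lay between -0.20 and -0.06. miR-107-3p, from Pank1, was counted at 506 and 397 in the control libraries, 533 and 452 at 12 h, 445 and 426 at 10 d, and 466 and 371 at 6 wk CPM. For both miRNAs the groups overlapped.

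Dnm2 and Dnm3 encode dynamins, GTPases that pinch off endocytic vesicles, and miR-199a lies on their opposite strand. miR-199a-5p was counted at 8.74 and 17.3 in the control libraries, 6.08 and 10.1 at 12 h, 17.3 and 24.3 at 10 d, and 39.6 and 20.8 at 6 wk CPM. Its log2 change was -0.60 ± 0.47 (SE) at 12 h and 1.12 ± 0.40 (SE) at 6 wk (adjusted p = 0.105), and the 6 wk libraries were both above the controls but far from each other. Dnm3 had mean signed folds of -2.55 at 12 h (mean q 2.45e-11), -2.52 at 10 d (mean q 1.32e-04) and -1.92 at 6 wk (mean q 0.0826) in the authors' deposited table. Dnm2 had a mean signed fold of -8.25 (its mean q was 3.05e-05) at 10 d in the authors' deposited table. Copz1 and Copz2, subunits of the coatomer of Golgi vesicles, were called at no time (Copz2 at 12 h had a fold of 79.9 (its mean q was 0.301) in the authors' deposited table), and the log2 change of miR-148b-3p was -0.20 ± 0.11 (SE) and that of miR-152-3p 0.20 ± 0.18 (SE) at 6 wk.

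Ptprn2 encodes a phosphatase-like protein of dense core vesicles. miR-153-3p, in its intron, was counted at 197 and 263 in the control libraries, 349 and 416 at 12 h, 219 and 184 at 10 d, and 164 and 180.0 at 6 wk CPM. The 12 h libraries were above all others. No comparison with control passed (log2 change 0.73 ± 0.18 (SE) at 12 h, adjusted p = 0.117), but the test of all times at once did (adjusted p = 0.0108). Ptprn2 had mean signed folds of -0.185 at 12 h (mean q 0.313), -3.67 at 10 d (mean q 1.75e-13) and -3.52 at 6 wk (mean q 9.82e-16) in the authors' deposited table.

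Hosts of clusters held miRNAs that moved together only in part. Smc4, a condensin subunit, carries miR-15b and miR-16, which share a seed. miR-15b-5p was counted at 52.4 and 61 in the control libraries, 35.5 and 47.5 at 12 h, 90.1 and 97 at 10 d, and 78 and 96.7 at 6 wk CPM. Both 12 h libraries were below the controls and all 10 d and 6 wk libraries above them, and the test of all times at once passed (adjusted p = 0.0148). miR-16-5p, which in mouse is also made from a gene outside this list, was counted at 5729 and 6604 in the control libraries, 5223 and 5371 at 12 h, 5949 and 5877 at 10 d, and 5649 and 6249 at 6 wk CPM, and the same test did not pass (adjusted p = 0.432). Smc4 had mean signed folds of 6.16 at 12 h (mean q 0.0142), 2.14 at 10 d (mean q 0.541) and 3.48 at 6 wk (mean q 0.239) in the authors' deposited table. Mcm7, a subunit of the replicative helicase, carries miR-25, miR-93 and miR-106b. miR-93-5p was counted at 454 and 424 in the control libraries, 415 and 425 at 12 h, 562 and 579 at 10 d, and 578 and 529 at 6 wk CPM and miR-25-3p at 739 and 715 in the control libraries, 618 and 642 at 12 h, 830.1 and 672 at 10 d, and 888 and 885 at 6 wk CPM. The 6 wk libraries of both were above the controls, with log2 changes of 0.33 ± 0.12 (SE) and 0.29 ± 0.13 (SE), neither past the threshold. miR-106b-5p changed by -0.09 ± 0.20 (SE) at 6 wk. Mcm7 was called at no time.

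Huwe1, a ubiquitin ligase, carries let-7f-2 and miR-98, and Wdr82, a subunit of a histone H3 methyltransferase complex, carries let-7g, all with the let-7 seed. let-7f-5p was counted at 22544 and 24594 in the control libraries, 25510.2 and 24548 at 12 h, 27967 and 23304 at 10 d, and 18355 and 23585 at 6 wk CPM and let-7g-5p at 5979 and 6458 in the control libraries, 7865 and 7141 at 12 h, 9009.5 and 7329 at 10 d, and 6135 and 6799 at 6 wk CPM. let-7g-5p changed by 0.39 ± 0.13 (SE) at 10 d (adjusted p = 0.116). Huwe1 had a mean signed fold of -1.07 (its mean q was 0.00436) at 10 d in the authors' deposited table. Wdr82 had a mean signed fold of -3.07 (its mean q was 6.63e-08) at 6 wk in the authors' deposited table.

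Of other hosts with a role in the brain, few had a miRNA that moved. Evl, an actin regulator of the Ena/VASP family, had mean signed folds of -1.21 at 12 h (mean q 0.132), -2.82 at 10 d (mean q 0.162) and -7.46 at 6 wk (mean q 5.37e-12) in the authors' deposited table. miR-342-3p of Evl was counted at 976 and 985 in the control libraries, 734 and 705 at 12 h, 815 and 955 at 10 d, and 957 and 1094 at 6 wk CPM, so that the 12 h libraries were lowest and the 6 wk libraries, at which the host was called lower, overlapped the controls. Pde2a, a cyclic nucleotide phosphodiesterase, had a fold of -1.33 (its mean q was 0.015) at 6 wk in the authors' deposited table, and miR-139-5p changed by -0.12 ± 0.11 (SE). Arrb1, beta-arrestin 1, had a fold of 1.51 (its mean q was 0.0145) at 10 d in the authors' deposited table, and miR-326-3p changed by -0.08 ± 0.21 (SE). Gpc1, a glypican, had mean signed folds of -2.27 at 12 h (mean q 4.47e-06), -0.673 at 10 d (mean q 0.322) and -2.4 at 6 wk (mean q 1.76e-06) in the authors' deposited table, and miR-149-5p changed by 0.17 ± 0.15 (SE) at 6 wk. Grid1, a delta glutamate receptor, and Odz4, teneurin 4, were called at no time, and their miR-346-5p and miR-708-5p changed by -0.56 ± 0.21 (SE) and 0.29 ± 0.19 (SE) at 6 wk. Chm, a Rab escort protein, was called at no time, and miR-361-5p changed by -0.08 ± 0.14 (SE). Nr6a1, a nuclear receptor with miR-181a and miR-181b on its opposite strand, was called at no time. miR-181a-5p was counted at 137525 and 128015 in the control libraries, 105442 and 86858 at 12 h, 106423 and 103186 at 10 d, and 103336 and 114463 at 6 wk CPM. In CPM all libraries after SE were below both controls, with no comparison past the threshold (adjusted p = 0.138 at 12 h). At 6 wk this separation depended on the TMM factors, since as shares of all tags the 6 wk and control libraries overlapped.

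The arms of a hairpin come from 1 precursor, so their ratio does not depend on library scaling. This comparison was added after the data had been seen. For 113 hairpins with both arms tested, 39 of them in hosts, limma was fitted to log2 of the 5p over the 3p tags, with 0.5 added to each. At 12 h 3 of 113 hairpins passed (2.65%), among them 1 in a host. At 10 d 1 passed (0.885%) and at 6 wk none did (0%), of which none was in a host. At an unadjusted p under 0.05 there were 9, 5 and 3 of the 39 host hairpins at 12 h, 10 d and 6 wk, beside 21, 18 and 8 of all 113. A second tool was not applied to the ratios.

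That hairpin was miR-30e in Nfyc (chr4:120430040-120498320, minus strand), a gene for a subunit of the CCAAT-binding factor NF-Y. miR-30e-5p was counted at 4746 and 5128 in the control libraries, 6947 and 7490.0 at 12 h, 5088 and 5582 at 10 d, and 4846 and 4503 at 6 wk CPM. miR-30e-3p was counted at 1741 and 1736 in the control libraries, 1300.0 and 1404 at 12 h, 1477 and 1379 at 10 d, and 1355 and 1584 at 6 wk CPM. The 12 h libraries were the highest for the 5p arm and below the controls for the 3p arm. The ratio of 5p to 3p tags was 2.72 and 2.95 in the control libraries, 5.34 and 5.33 at 12 h, 3.44 and 4.05 at 10 d, and 3.58 and 2.84 at 6 wk. The log2 ratio changed by 0.91 ± 0.14 (SE) at 12 h (adjusted p = 0.00122), 0.40 ± 0.14 (SE) at 10 d (adjusted p = 0.164) and 0.17 ± 0.14 (SE) at 6 wk (adjusted p = 0.633). miR-30c-5p, which also lies in this host, had the same seed as miR-30e-5p and a log2 change of 0.07 ± 0.15 (SE) at 12 h. Nfyc had a mean signed fold of -1.44 (its mean q was 0.498) at 12 h in the authors' deposited table and was called at no time.

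For miR-431, opposite to Rtl1, the ratio of 5p to 3p tags was 0.221 and 0.266 in the control libraries, 0.182 and 0.184 at 12 h, 0.216 and 0.273 at 10 d, and 0.438 and 0.502 at 6 wk. Both 6 wk libraries were above all others, and the log2 ratio changed by 0.95 ± 0.22 (SE) at 6 wk (adjusted p = 0.0931), which missed the threshold. For miR-126 in Egfl7, a secreted protein of endothelium, the ratio was 1.68 and 1.43 in the control libraries, 2.03 and 1.97 at 12 h, 1.63 and 1.47 at 10 d, and 1.36 and 1.28 at 6 wk. The 12 h libraries were the highest, with a log2 change of the ratio of 0.37 ± 0.15 (SE) (adjusted p = 0.165). miR-126-5p itself was counted at 1075 and 958 in the control libraries, 1582 and 1697 at 12 h, 1349 and 1164 at 10 d, and 1252 and 953 at 6 wk CPM and passed the test of all times at once (adjusted p = 0.036).

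**Figure D4:**
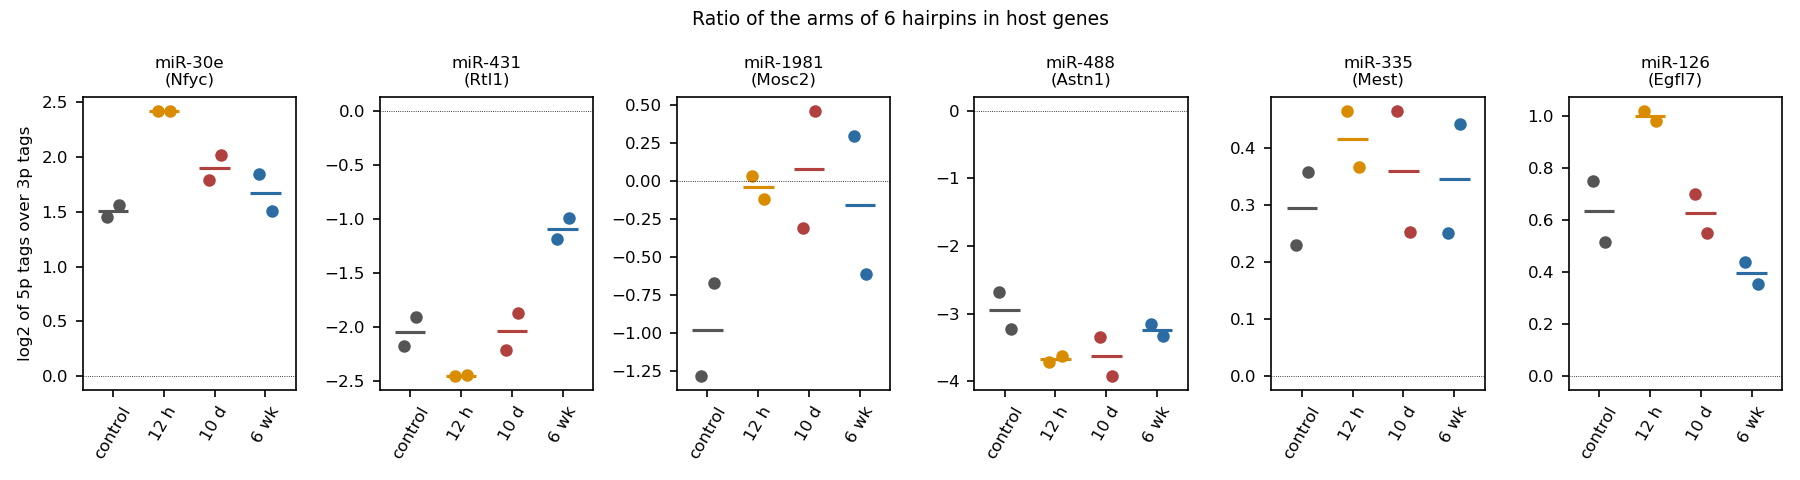
Log2 of 5p over 3p tags for 6 hairpins in host genes, with 1 point per library and a bar at the mean of the 2 libraries of a group. The 12 h libraries of miR-30e stand above the other libraries, and the 6 wk libraries of miR-431 do so.

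Some host miRNAs differed more within groups than between them. Htr2c (chrX:143397056-143631820) encodes the serotonin 2C receptor, which is abundant in choroid plexus, and carries miR-448, miR-1298 and miR-764. miR-448-3p was counted at 12.6 and 49.1 in the control libraries, 96.3 and 85.2 at 12 h, 29.2 and 201 at 10 d, and 16.2 and 69.2 at 6 wk CPM, and miR-1298-5p at 39.8 and 171 in the control libraries, 193 and 143 at 12 h, 37 and 502 at 10 d, and 39 and 169.6 at 6 wk. In the control, 10 d and 6 wk groups 1 library was several times above the other, and the shallower 10 d library was the highest of all. The log2 change of miR-448-3p was 1.49 ± 0.88 (SE) at 12 h and 1.69 ± 0.91 (SE) at 10 d (adjusted p = 0.341), so that no change could be told from the spread. Htr2c had mean signed folds of 4.14 at 12 h (mean q 6.24e-04), 11.9 at 10 d (mean q 1.43e-13) and -0.164 at 6 wk (mean q 0.726) in the authors' deposited table, called higher at 12 h and 10 d. miR-204-5p of Trpm3 was counted at 7497 and 9129 in the control libraries, 7130.1 and 7324 at 12 h, 5771 and 12346 at 10 d, and 5298 and 8735 at 6 wk CPM, and its higher library in the control, 10 d and 6 wk groups was the same library as for miR-448-3p.

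Markers of choroid plexus, a tissue next to the hippocampus, were called in the mRNA at these times. Of 12 such markers the authors' deposited table called 3 higher and none lower at 12 h (Ttr, Kl and Igfbp2), 3 higher at 10 d (Ttr, Igf2 and Igfbp2), and 2 higher (Igf2 and Igfbp2) and 1 lower (Enpp2) of 11 with a fold at 6 wk, beside 10.2%, 7.85% and 9.63% of all genes higher and 12% lower at 6 wk. Ttr, transthyretin, had mean signed folds of 179 at 12 h (mean q 1.21e-15), 558 at 10 d (mean q 3.12e-10) and 57.7 at 6 wk (mean q 0.0529) in the authors' deposited table. The median fold of the list was 4.24 at 12 h, 14.5 at 10 d and -0.61 at 6 wk. No mRNA level per library was analysed, and the part of choroid plexus tissue in the values of Htr2c, miR-448, miR-1298 and miR-204 was not tested. In bulk tissue, fewer cells of a type and less RNA per cell cannot be told apart.

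miR-378b, opposite to Msi2, an RNA-binding protein of neural precursors, split the libraries without regard to group. miR-378b was counted at 6.79 and 205 in the control libraries, 11.1 and 162 at 12 h, 179 and 10.4 at 10 d, and 13.6 and 17.7 at 6 wk CPM. In the control, 12 h and 10 d groups 1 library was far above the other, both 6 wk libraries were low, and no comparison passed (log2 change -2.78 ± 1.45 (SE) at 6 wk, adjusted p = 0.248). miR-10b-5p, within Hoxd3 and Hoxd4, was counted at 59.2 and 267 in the control libraries, 163 and 177 at 12 h, 176 and 206 at 10 d, and 170.2 and 169.6 at 6 wk CPM, with a single control library below all others.

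**Figure D5:**
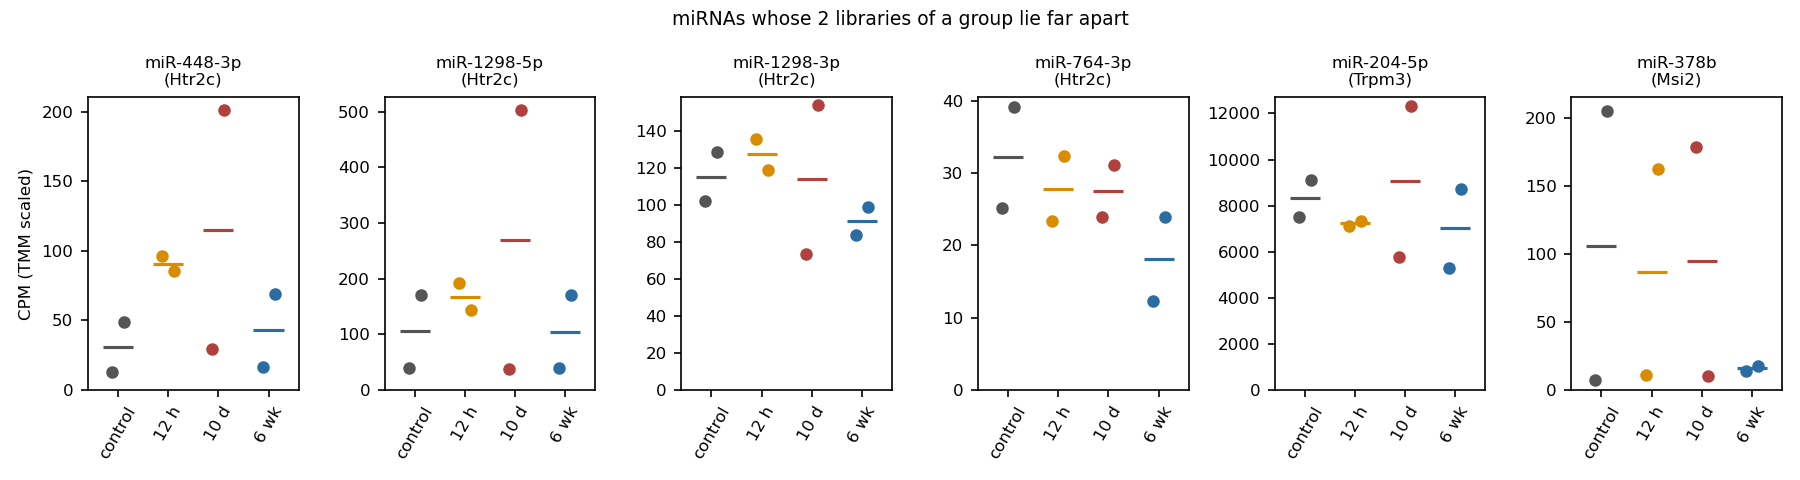
CPM (TMM scaled, axes from 0) of 6 host miRNAs whose libraries of a group lay far apart, with 1 point per library and a bar at the mean of the 2 libraries. The shallower 10 d library is the highest of all for both arms of miR-1298, for miR-448-3p and for miR-204-5p, and the lower of its group for miR-378b.

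The genes that make and use miRNAs had calls in both directions. Of 20 such genes the authors' deposited table called 1 higher and 3 lower at 12 h, 2 and 3 at 10 d, and 4 and 6 at 6 wk, beside backgrounds of 10.2% and 7.48%, 7.85% and 11.3%, and 9.63% and 12% of all genes. Rnasen (Drosha) had a fold of -3.45 (its mean q was 2.23e-13), Dgcr8 one of -17.7 (its mean q was 1.01e-07) and Dicer1 one of 2.44 (its mean q was 0.00251) at 6 wk in the authors' deposited table. Ddx5, a helicase of the Drosha complex, had mean signed folds of -2.01 at 12 h (mean q 1.21e-15), -2.86 at 10 d (mean q 8.66e-16) and -2.69 at 6 wk (mean q 1.45e-09) in the authors' deposited table. Eif2c3 (Argonaute 3) had mean signed folds of 10.7 at 12 h (mean q 9.27e-07), 9.45 at 10 d (mean q 0.00109) and 18.9 at 6 wk (mean q 9.82e-16) in the authors' deposited table, called higher at all 3 times. Tnrc6b, an Argonaute partner, was called lower at all 3 times.

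Of 10 microglia markers, the authors' deposited table called 1 higher and 1 lower at 12 h, 5 higher and 1 lower at 10 d, and 4 higher at 6 wk. Of 8 neuron markers, it called 1 higher and 1 lower at 12 h, 5 lower at 10 d and 5 lower at 6 wk. Of 7 astrocyte markers it called 2 higher at 12 h, 2 at 10 d and 3 at 6 wk, and none lower. Of 8 oligodendrocyte markers it called 2 higher and 2 lower at 12 h, 2 higher at 10 d, and 1 higher and 2 lower at 6 wk. Of 4 endothelium markers it called 1 higher at 12 h, 1 at 10 d and 2 at 6 wk, and none lower. These counts stand beside 10.2%, 7.85% and 9.63% of all genes higher and 7.48%, 11.3% and 12% lower. Each marker of these 5 lists had a fold at each time, and their levels were not analysed. The part of these cell types in the host values was not tested.

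The times after SE were also tested against each other. Between 6 wk and 12 h 34 of the 147 miRNAs passed, 18 higher and 16 lower at 6 wk, against 92 of 422 in all (21.8%), 13% higher and 8.77% lower. Between 10 d and 12 h 4 passed, against 12 of 422 (2.84%), of which 3 were higher at 10 d, against 2.61%, and 1 lower, against 0.237%. Between 6 wk and 10 d 2 passed, both higher at 6 wk, against 7 of 422 (1.66%), or 1.42% higher. The largest of these differences were those of miR-211-5p, at 4.38 on the log2 scale between 6 wk and 12 h, and miR-455-3p, at 2.56. miR-211-5p met the tag minimum only through the 6 wk libraries, so that its size here is a description.

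Just inside the tag minimum lay Cbwd1 and Eif3a (miR-3084-3p, a mean of 23.8 tags), Apba3 (24.1) and 2610318N02Rik (26.8). Just outside it lay Smcr7 (19.0), Lemd1 (18.9) and BC057079 (18.1).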

How the data were processed

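Poly(A) RNA of mouse hippocampus was sequenced on a Genome Analyzer II in 8 libraries (4 groups of 2), per the labels' protocols. Reads were mapped with Bowtie at its default settings to mm9, and uniquely mapped reads in RefSeq exons were counted, per the series' design text, which does not say how folds and q-values were computed. The deposited mean signed fold of each gene and time (a fall is negative, 0 means that none is listed) and the mean q-value are the authors' own and were used unchanged. The deposited tag count of each mature miRNA and library is raw, per the file headers, and how small RNA was prepared and mapped was not stated. The deposited height of each region named for CREB is a score of unstated scale, used for presence only.

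Of 29208 rows in the table, 96 without a gene were dropped, and the first row of a gene that holds a counted miRNA gave its values. Coordinates are mm9, printed from 1. The strand of a miRNA came from a match of its RefSeq mature sequence to the mm9 genome, or without a match from GENCODE annotation. Its place in the host came from GENCODE annotation of the same build. Counts were tested with edgeR 4.0.16 (TMM, its default count filter, 1 fit over all 4 groups), arm ratios with limma 3.58.1, added after the data had been seen, and DESeq2 1.42.0 was an alternative, all in R 4.3.3. Each test script was checked on simulated data. Count columns carry library numbers and not the replicate letters of the labels, so each stands for its group, and 24 further columns of per-sample values (normalized values and tags per region) were not used. The members, lists and tests were chosen with earlier results of these data known. Named with values were pairs whose miRNA passed against control, the 10 pairs with the most tags, the 4 called hosts with the largest fold at each time, related hosts sharing a seed, hosts of clusters and a list with a role in the brain. Of the listed hosts, Zranb2 entered only the counts by role. It holds miR-186-5p (a mean of 7360 tags). It was called lower at 10 d, with a mean signed fold of -1.22 (its mean q was 0.015) in the authors' deposited table. The other genes of the host lists that are not described held no miRNA above the tag minimum. miR-30e, miR-126, miR-872-5p, miR-378b and miR-10b-5p were named after their values were seen.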

Additional observations from a re-analysis of the deposited data

Results flagged for a closer look

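These results are listed because the change of a host miRNA from control differed between times after SE, by edgeR's quasi-likelihood test of the difference itself. Values are log2 differences between the later and the earlier time, in which the controls cancel. The word "in" gives the position within the span of the gene only. The listed miRNAs of Rtl1, Ppargc1b, Dnm2 and Dnm3 were assigned to the opposite strand, and the miRNAs of Mib1 to different strands. For Ppargc1b and Mib1 these assignments were not checked against another source. From 12 h to 10 d the differences were miR-455-3p in Col27a1 (1.65), miR-21a-5p in Tmem49 (1.44) and miR-15b-5p in Smc4 (1.13), higher at 10 d, and miR-153-3p in Ptprn2 (-0.92), lower at 10 d.

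From 12 h to 6 wk 34 miRNAs differed. Higher at 6 wk were miR-211-5p in Trpm1 (4.38), miR-455-3p in Col27a1 (2.56), miR-199a-5p in Dnm2 and Dnm3 (1.72), miR-431-5p in Rtl1 (1.24), miR-690 in Fgf12 (1.21) and miR-15b-5p in Smc4 (1.04). With smaller rises there were miR-21a-5p in Tmem49 (0.93), miR-3102-3p.2-3p in Arhgef17 (0.92), miR-339-5p in 3110082I17Rik (0.89), miR-342-5p in Evl (0.80), miR-574-3p in Fam114a1 (0.71) and miR-140-3p in Wwp2 (0.70). The smallest rises were those of miR-598-3p in Xkr6 (0.70), miR-652-3p in Tmem164 (0.63), miR-378a-3p in Ppargc1b (0.55), miR-342-3p in Evl (0.51), miR-25-3p in Mcm7 (0.49) and miR-93-5p in Mcm7 (0.40). Lower at 6 wk were miR-7a-5p in Hnrnpk (-1.22), miR-153-3p in Ptprn2 (-1.16), miR-488-3p in Astn1 (-1.10), miR-335-5p in Mest (-0.89), miR-335-3p in Mest (-0.83) and miR-301a-3p in Fam33a (-0.83). With smaller falls there were miR-879-5p in 9330182L06Rik (-0.79), miR-488-5p in Astn1 (-0.68), miR-218-5p in Slit2 and Slit3 (-0.66), miR-30e-5p in Nfyc (-0.63), miR-1a-3p in Mib1 (-0.62) and miR-434-3p in Rtl1 (-0.58). The smallest falls were those of miR-126-5p in Egfl7 (-0.57), miR-127-5p in Rtl1 (-0.57), miR-128-3p in Arpp21 and R3hdm1 (-0.43) and miR-434-5p in Rtl1 (-0.40).

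Of these, miR-211-5p and miR-3102-3p.2-3p met the minimum of 20 tags only through the 6 wk libraries (means of 9.5 and 19.7 tags over the other 6), so their rises are a description.

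From 10 d to 6 wk the differences were miR-211-5p in Trpm1 (3.77) and miR-431-5p in Rtl1 (1.13), both higher at 6 wk. Both arms of miR-335 in Mest, of miR-488 in Astn1 and of miR-434 opposite to Rtl1 fell from 12 h to 6 wk, while miR-431-5p of the last cluster rose.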

How the results depend on the processing

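No paired analysis was possible because the count columns carry a library number and not the replicate letter of the labels. The count of host miRNAs that passed at 12 h (1) was 2 with DESeq2 size factors in edgeR, 6 with library totals and no TMM factors, 13 with no count filter, 2 with only control and 12 h fitted and 8 with DESeq2. Over all miRNAs tested, the 12 h calls were, in the same order, 2 higher and 1 lower, 12 and 1, 23 and 2 (of 796), 3 and 1 (of 390), and 9 and 4. At 10 d (1) the count of host miRNAs was 4 with library totals and no TMM factors and 8 with no filter. Over all miRNAs tested, the 10 d calls were then 18 higher and 0 lower, and 24 higher and 5 lower (of 796). The count of host miRNAs over all times (19) was 35 with no filter and 29 with DESeq2, which was not counted over all miRNAs. Leaving out each library in turn gave 0 to 2 at 12 h, 1 to 2 at 10 d, 7 to 15 at 6 wk and 10 to 21 over all times. Without TMM factors the median change of all 422 miRNAs moved up by 0.14 at 12 h, 0.16 at 10 d and 0.16 at 6 wk on the log2 scale. The split of host miRNAs at 6 wk moved from 7 higher and 6 lower to 14 and 5, and that of all miRNAs from 27 and 17 to 53 and 10. With DESeq2 the 6 wk split was 6 and 9 for host miRNAs and 27 and 18 for all. Higher host calls at 10 d (10) were 6 at a mean q under 0.01, at which the share of all genes was not counted. Pairs of the same sign were 54 of 96, 50 of 96 and 50 of 95 at 12 h, 10 d and 6 wk among miRNAs with at least 100 tags on average. No called miRNA changed sign under any of its 13 alternatives, and miR-21a-5p, miR-211-5p, miR-455-3p, miR-431-5p, miR-218-5p, miR-488-3p and miR-128-1-5p passed at 6 wk under all 13. For miR-211-5p this is a description, since it met the tag minimum only through the 6 wk libraries. The cause of these differences was not tested. Depth limits miRNAs such as miR-211-5p and miR-350-3p, with a few tags in some libraries.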

Other observations

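CREB is a transcription factor activated by cyclic AMP and calcium. In the deposited table, 38 of the 98 hosts (38.8%) had a region in at least 1 of its 3 lists of CREB regions, beside 36% of all genes, and 6 hosts (6.12%) had a region in all 3 lists, beside 7% of all genes. These regions have no library of their own in the samples used here.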
